A study of Mus musculus with 18 samples.

Results

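The 43 genes described here encode proteins that bring new secretory and membrane proteins into the endoplasmic reticulum (ER), fold them there and dispose of those that fail to fold, together with the sensors and transcription factors of the unfolded protein response. They were picked by symbol from an expression table of 24116 genes. By role they are 15 luminal chaperones and disulfide isomerases (Hspa5, Hsp90b1, Hyou1, Dnajc3, Dnajb9, Dnajb11, Sdf2l1, Manf, Creld2, Calr, Canx, Pdia3, Pdia4, Pdia6 and P4hb), 12 parts of the translocation channel and the signal peptidase (Sec61a1, Sec61b, Sec61g, Ssr1, Ssr2, Ssr3, Ssr4, Spcs1, Spcs2, Spcs3, Sec11a and Sec11c) and 8 parts of ER-associated degradation (Sel1l, Syvn1, Derl1, Derl2, Derl3, Edem1, Edem2 and Herpud1). The others are 6 sensors and transcription factors (Xbp1, Atf6, Ern1, Ern2, Creb3l1 and Creb3l2) and 2 retrieval receptors (Kdelr2 and Kdelr3). All 43 are in the table and 41 were tested. The 2 left out by the filter on low values were Sec61g, a small subunit of the channel, at 0.0298 to 0.381 RPKM over the 18 libraries, and Derl3. RPKM is a read count divided by the gene's length in kilobases and scaled to the library's total, so levels can be compared between genes. That comparison is less certain for genes that share sequence with others, as Sec61g does.

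Messenger RNA was measured in intestinal organoids, small hollow epithelia that intestinal stem cells form in a gel, with 3 libraries at each of days 0, 1, 2, 3, 4 and 5. All came from C57BL/6 wild-type mice aged 8 weeks, as 3 organoid lines, and each library pooled 30 wells. Before day 0 the organoids were kept in IntestiCult medium. From day 0 every group was in ENR medium, with EGF, Noggin and R-spondin. Until day 1 it also held 20% Wnt3a-conditioned medium, the ROCK inhibitor Y-27632 at 10 µM and the GSK3 inhibitor CHIR99021 at 3 µM. From day 1 to day 3 CHIR99021 was left out, and from day 3 to day 5 ENR alone was given. Medium and day therefore cannot be told apart. Replicate 1 of every day is titled mouse 1 and had no DNase treatment, whereas replicates 2 and 3 were treated. Replicate 3 is mouse 3, and replicate 2 is mouse 2 except at days 1 and 2, where its title names mouse 1. Mouse 1 thus has treated libraries at those 2 days only. Nothing else says that replicates were separate cultures, so p-values measure the spread between these libraries.

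As background, proteins with a signal peptide enter the ER through the Sec61 channel and lose that peptide to the signal peptidase. Inside they meet BiP, the Hsp70 chaperone encoded by Hspa5, its J-domain partners, the calnexin and calreticulin cycle for glycoproteins, and the protein disulfide isomerases, while misfolded proteins are passed back to the cytosol for degradation. When folding falls behind, the kinase and nuclease Ire1 (Ern1, with its mucosal relative Ern2) splices the Xbp1 message and the membrane protein Atf6 is cut to free a transcription factor, and both raise chaperone and degradation genes. In the intestine, goblet and Paneth cells carry the heaviest secretory load. RPKM per gene shows neither Xbp1 splicing nor cleavage of Atf6, so neither was measured here.

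Many genes of this pathway carry the ER stress response element, to which Atf6 binds with the factor NF-Y. The stretches below are shown because, among the members, they lie in chaperone and degradation promoters and in none of the other roles. The motif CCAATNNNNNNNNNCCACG was searched on both strands in the 250 bases before each start in RefSeq promoters of build GRCm38.p6. It was found in 9 of the 32 members that have a promoter in that set, or 28.1%, against 33 of all 27025 promoters, or 0.122%. It was in 7 of 13 chaperone promoters and 2 of 7 degradation promoters, and in none of 8 translocon, 3 sensor and 1 retrieval promoters. Hsp90b1 holds it at 2 places. Below, each sequence runs 5′ to 3′ on the strand of the gene, and capitals mark the CCAAT and CCACG ends or, where the motif lies on the other strand, their complements CGTGG and ATTGG.
Hspa5 (chr2:34772015-34772053, plus strand): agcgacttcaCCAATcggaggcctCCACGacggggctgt
Hsp90b1, distal (chr10:86705628-86705666, minus strand): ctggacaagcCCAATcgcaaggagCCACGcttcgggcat
Hsp90b1, proximal (chr10:86705523-86705561, minus strand): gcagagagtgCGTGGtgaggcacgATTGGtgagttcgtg
Calr (chr8:84847065-84847103, minus strand): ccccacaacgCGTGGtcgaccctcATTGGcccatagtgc
Canx (chr11:50325790-50325828, minus strand): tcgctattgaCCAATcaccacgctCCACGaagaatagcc
Pdia6 (chr12:17266481-17266519, plus strand): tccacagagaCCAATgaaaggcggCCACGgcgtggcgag
Dnajc3 (chr14:118937817-118937855, plus strand): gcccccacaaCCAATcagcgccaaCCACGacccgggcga
Creld2 (chr15:88819510-88819548, plus strand): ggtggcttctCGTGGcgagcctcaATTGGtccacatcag
Syvn1 (chr19:6046522-6046560, plus strand): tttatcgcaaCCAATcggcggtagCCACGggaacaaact
Derl3 (chr10:75893232-75893270, plus strand): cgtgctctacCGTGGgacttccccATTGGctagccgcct
Herpud1, second motif (chr8:94386363-94386401, plus strand): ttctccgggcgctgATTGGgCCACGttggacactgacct

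The first 10 lines are the 9 genes with the element. The last shows Herpud1, which holds instead a related element, ATTGG and CCACG with 1 base between them, as did 9 of the 27025 promoters (0.0333%). The core of another element, TGACGTGG, was in 136 promoters (0.503%) and in that of 1 member, Kdelr3. A match describes letters in this window and is not evidence that a factor was bound.

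Implied depth was 43010000 to 53930000 reads per library, with 9953 to 10758 genes at 1 RPKM or more. Libraries were compared by the correlation of their expression over genes. Day 0 replicate 1 was the least like its own day at that time point (r = 0.957). Day 3 replicate 2 and day 4 replicate 3 were closer to days 1 and 2 than to their own, and 10 of the 12 libraries of days 1 to 4 were closest to another day. Day 2 replicate 2 (r = 0.955 with its own day), day 3 replicate 1 (0.946) and day 4 replicate 1 (0.95) were closest to the following day. Day 0 replicate 1, day 3 replicate 2 and day 4 replicate 3 are named below as the 3 libraries that stood apart. At days 3 and 4 this choice took out libraries like earlier days and kept those like later days. A fit without these 3 libraries, chosen after the data were seen, ended 5 calls of single members and added others, and both are given with the results. Of 10 epithelial marker genes all 10 had a mean of at least 1 RPKM, whereas no endothelial marker of 5 did, and 1 of 10 mesenchymal markers and 1 of 10 plasma and immune cell markers did.

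By overall mean, P4hb was the most abundant member at 677 RPKM, ahead of Calr (325), Hspa5 (283), Hsp90b1 (249) and Pdia3 (220). These 5 are luminal chaperones and isomerases, and Ssr2 (144) and Ssr4 (135), subunits of the translocon-associated protein complex, came next. The other members lay between 10 and 100 RPKM (26 genes), between 1 and 10 RPKM (8 genes) or under 1 RPKM (2 genes). Over all days, limma's F test called 8 of the 41 tested members (19.5%), against 25.3% of all 11111 genes tested, a share below that of all genes. The 8 were Dnajb11, Sdf2l1, Manf, Creld2, Sec11c, Herpud1, Ern2 and Creb3l1, at adjusted p-values of 0.00153 (Sec11c) to 0.0464 (Manf). Under an unadjusted p of 0.05 were 15 of the 41 members and 4784 of the 11111 genes. Manf lost its call without any 1 of 13 libraries, and Herpud1 without day 1 replicate 1 (adjusted p = 0.0777), 2 (0.0872) or 3 (0.0644) or day 4 replicate 2 (0.054). In the DNase-treated libraries alone Sec11c was the single one of the 8 that was still called. Without the 3 libraries that stood apart, 17 members were called: Manf was lost (0.0578), and Dnajc3, Dnajb9, P4hb, Edem1, Edem2, Xbp1, Atf6, Creb3l2, Kdelr2 and Kdelr3 were added (0.00964 to 0.0376). The share of all genes called in that fit is not given here.

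The day of the highest mean differed between the roles. Of the 15 chaperones, 12 were highest at day 2, Dnajc3 at day 4, and Dnajb9 and P4hb at day 5. All 6 sensors and transcription factors were highest at day 5, and 5 of these 6 were lowest at day 1. Translocon genes were spread over day 0 (1 gene), day 2 (3), day 4 (3) and day 5 (5), and degradation genes over all days from 1 to 5. Over the 43 members, 16 were highest at day 2 and 16 at day 5, and 20 were lowest at day 0. Among all 11111 genes, 1395 were highest at day 2 and 1862 at day 5, while day 0 held the highest mean of 3738. Day 0 held the lowest mean of 2539 of them, and day 5 that of 4306. These are descriptions of means, with no test.

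**Figure D1:**
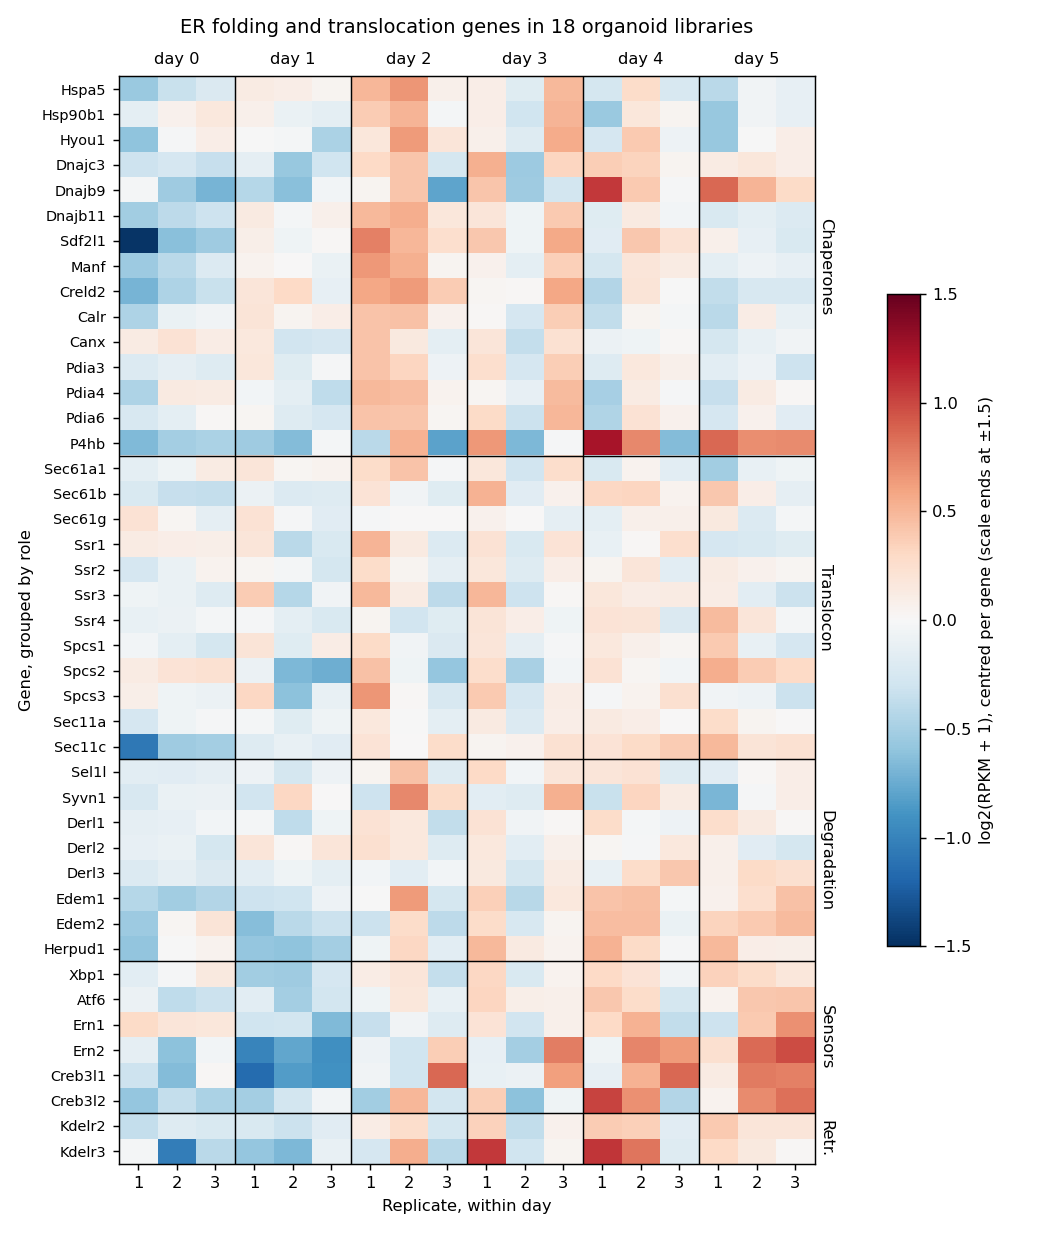
Level of each of the 43 genes in each of the 18 libraries, as log2(RPKM + 1) centred per gene (red above, blue below the gene's mean), with genes grouped by role (rows) and libraries by day and replicate (columns). Most chaperones are red in replicates 1 and 2 of day 2, both titled mouse 1, and less so in replicate 3. At day 2, 12 of 15 chaperones had their highest mean, and the 6 sensors and transcription factors had theirs at day 5.

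Among the 15 chaperones the median change from day 0 was 0.14 (log2) at day 1, 0.46 at day 2 and 0.18 at day 5, and 3, 5 and 3 of them rose. Days 3 and 4 were not tested against day 0. Replicates 1 and 2 of day 2 are both titled mouse 1, so the mice of that day differ from those of days 0 and 5. The median level of the chaperones, centred per gene, was 0.43 and 0.50 (log2) in these 2 libraries. It was 0.04 in replicate 3 of day 2, titled mouse 3, and 0.40 in replicate 3 of day 3. Calls from fits with a block by mouse are given in the last section. At day 1, 4 of the 41 members rose and none fell, where 18.6% of all genes were called (9.54% rose and 9.05% fell). The 4 were Sdf2l1, Creld2, Dnajb11 and the signal peptidase subunit Sec11c. At day 2, 6 members rose and none fell, where 15.3% of all genes were called (8.27% rose and 7.06% fell), and these were the same 4 with Hspa5 and Manf. The comparisons of days 2 and 0 and of days 5 and 2 were added once the day means had been seen. Dnajb11 and Creld2 then fell from day 2 to day 5. No other member passed the test in that comparison, in which 11.7% of all genes were called (5.8% rose and 5.95% fell). Without the 3 libraries that stood apart, 3 more chaperones fell from day 2 to day 5, Hspa5 (-0.60, limma adjusted p = 0.0353), Sdf2l1 (-0.59, 0.0243) and Manf (-0.52, 0.0395), and so did Sec61a1, while P4hb (0.98, 0.0341) and Edem2 (0.55, 0.0317) rose.

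Hspa5 (gene at chr2:34772090-34776529, RefSeq on GRCm38.p6, as for the positions that follow) encodes BiP, which binds exposed hydrophobic stretches of unfolded proteins and holds the stress sensors inactive. In replicates 1 to 3 it stood at 188, 219 and 238 RPKM at day 0, 300.4, 295 and 285 at day 1, 390.2, 435 and 291 at day 2, 296, 242 and 387 at day 3, 230.0, 333 and 233 at day 4 and 209, 267 and 253 at day 5. Every library of days 1 and 2 was above every library of day 0, and those of day 5 overlapped day 0. The mean went from 215 ± 25.3 RPKM (SD, n = 3) at day 0 to 372 ± 73.7 at day 2, a log2 change of 0.78 ± 0.20 (SE, limma adjusted p = 0.0181). That call was lost with quantile normalization (adjusted p = 0.217), in the 12 DNase-treated libraries alone (0.161), in a fit of the days compared alone (0.058) and without any 1 of day 0 replicates 1 or 2 (0.0609 and 0.053) and day 2 replicates 1 or 2 (0.0583 and 0.073). The change at day 1, 0.45, did not pass the test (limma adjusted p = 0.135), nor did day 5 against day 0 (0.18, 95% interval -0.26 to 0.61, adjusted p = 0.519).

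Sdf2l1 (chr16:17130138-17132383), a component of BiP complexes that slows aggregation, had the largest change of any member at day 2. Its RPKM was 10.4, 19.6 and 20.8 at day 0, 32.6, 29.3 and 31.0 at day 1, 52.6, 43.9 and 36.8 at day 2, 40.8, 29.2 and 45.9 at day 3, 27.3, 41.1 and 35.7 at day 4 and 32.5, 28.1 and 26.1 at day 5. No later library came down to the level of day 0, where replicate 1 was the lowest. The log2 change was 0.89 ± 0.24 (SE) at day 1 (limma adjusted p = 0.0165), 1.38 ± 0.24 at day 2 (adjusted p = 0.00148) and 0.79 ± 0.24 at day 5 (adjusted p = 0.0264). The day 2 call held without each of the 18 libraries in turn. At day 1, omitting day 0 replicate 1 (adjusted p = 0.0657) or day 1 replicate 3 (0.0522) ended the call. The day 5 call was lost without day 5 replicates 1 (0.105) or 2 (0.0607), and without day 0 replicate 1 the change itself came down to 0.49 (adjusted p = 0.1; 0.0601 without all 3 libraries that stood apart). In the DNase-treated libraries it was 0.41 (adjusted p = 0.173).

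Dnajb11 (chr16:22857845-22879634), a J-domain protein that hands substrates to BiP, and Creld2 (chr15:88819646-88826681), a disulfide isomerase induced by ER stress, followed the same course with smaller spread. For Dnajb11 the 3 libraries read 23.5, 25.6 and 27.3 RPKM at day 0, 37.5, 33.3 and 36.0 at day 1, 48.2, 50.04 and 38.6 at day 2, 38.8, 32.5 and 45.2 at day 3, 29.9, 37.5 and 33.1 at day 4 and 28.9, 30.6 and 29.5 at day 5. Creld2 was at 16.9, 20.1 and 22.0 RPKM at day 0, 31.9, 34.7 and 25.7 at day 1, 42.5, 44.3 and 36.9 at day 2, 28.7, 28.4 and 42.3 at day 3, 20.5, 32.1 and 28.0 at day 4 and 21.5, 23.7 and 23.6 at day 5. In both genes all day 2 libraries lay above those of days 0, 1 and 5. From day 0 to day 2 Dnajb11 rose by 0.81 ± 0.14 (SE, log2, limma adjusted p = 0.00167) and Creld2 by 1.04 ± 0.19 (adjusted p = 0.00201), and neither call was lost by leaving out a library.

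The increases of these 2 genes at day 1 were 0.47 for Dnajb11 (limma adjusted p = 0.0305) and 0.62 for Creld2 (adjusted p = 0.0307). Leaving out any 1 of the 6 libraries of days 0 and 1 ended the first (adjusted p up to 0.0874), and leaving out day 0 replicates 1 or 2 or day 1 replicates 1 or 2 ended the second (up to 0.114). Without the 3 libraries that stood apart both were lost as well (0.41, adjusted p = 0.0622, and 0.52, 0.0948). From day 2 to day 5 Dnajb11 fell by 0.60 ± 0.14 (SE, log2, adjusted p = 0.0199) and Creld2 fell by 0.82 ± 0.19 (adjusted p = 0.0171). Both of these calls were lost without day 2 replicate 1 (adjusted p = 0.0806 and 0.0655), and without any 1 of the 3 day 5 libraries (up to 0.0647 and 0.061). Median-of-ratios rescaling left Dnajb11 at an adjusted p of 0.0698.

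Manf (chr9:106888753-106891938), a secreted cofactor that stabilises BiP with its clients, was at 27.003, 29.9 and 34.4 RPKM at day 0, 41.3, 40.2 and 37.3 at day 1, 63.4, 58.1 and 41.0 at day 2, 41.7, 36.0 and 51.5 at day 3, 33.0, 45.4 and 43.4 at day 4 and 35.9, 37.7 and 36.7 at day 5. All later libraries but day 4 replicate 1 were above the highest of day 0. It rose by 0.80 ± 0.18 (SE, log2) from day 0 to day 2 (limma adjusted p = 0.00708), a call that was lost in the DNase-treated libraries alone (0.0911) and in a fit of the 2 days alone (0.0504).

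Hsp90b1, which encodes Grp94, the Hsp90 chaperone of the ER lumen, is nearly as abundant as BiP and was called in no comparison. Its libraries read 219.7, 255 and 273 RPKM at day 0, 257, 228 and 219.7 at day 1, 317, 346 and 238 at day 2, 262, 198 and 346 at day 3, 165, 274 and 251 at day 4 and 164, 235 and 224 at day 5. The days overlapped throughout, apart from days 2 and 5. The change at day 2 was 0.26 (log2, 95% interval -0.24 to 0.75, limma adjusted p = 0.494), and whether it differed from that of Hspa5 was not tested. With quantile normalization Hsp90b1 was lower at day 5 than at day 0 (-0.81, adjusted p = 0.0283).

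**Figure D2:**
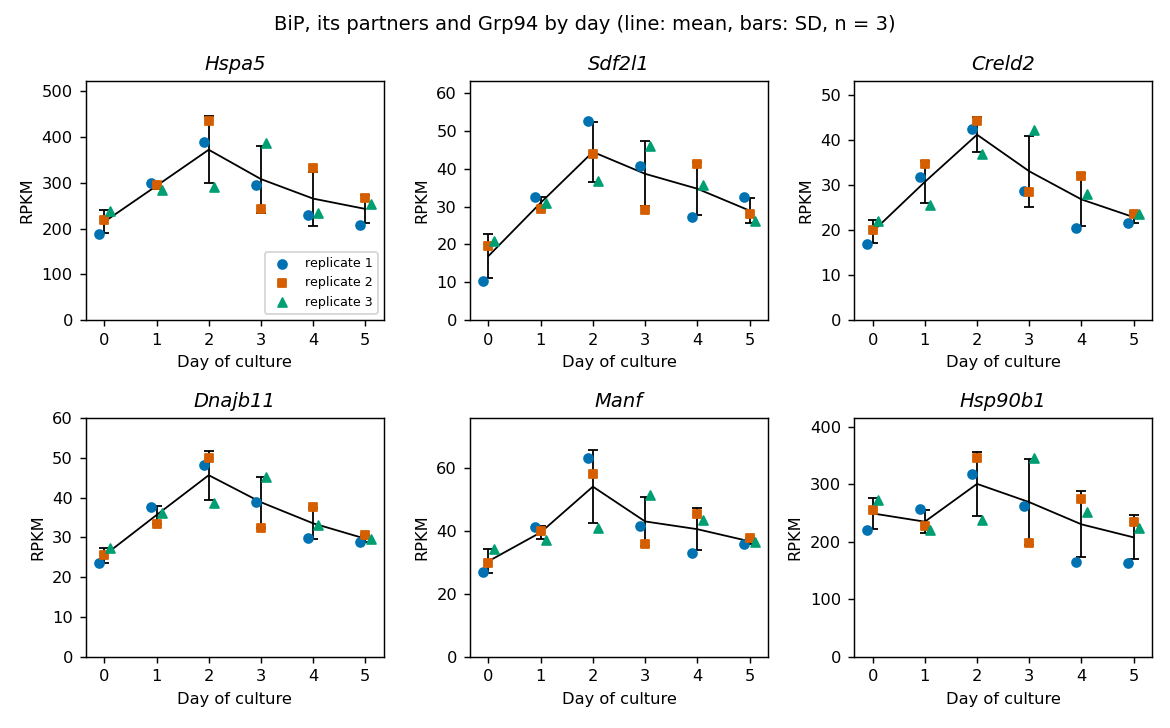
RPKM of 6 chaperones by day of culture, with 1 point per library (shape and colour give the replicate) and the mean ± SD of n = 3 as a black line. Hspa5, Sdf2l1, Creld2, Dnajb11 and Manf have their highest means at day 2, whereas the libraries of Hsp90b1 overlap between most days.

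Hyou1, Calr, Canx, Pdia3, Pdia4 and Pdia6 had their highest means at day 2 as well, but none was called there. Hyou1, the nucleotide exchange factor of BiP, had means of 38.5, 54.4 and 38.7 RPKM at days 0, 2 and 5. The glycoprotein chaperone Calr went from 279 to 399 and back to 294 RPKM, while its membrane relative Canx had day means of 86.4 to 107. Among the isomerases, Pdia3 had means of 193, 258 and 192 RPKM at days 0, 2 and 5, Pdia4 of 52.3, 69.1 and 51.9, and Pdia6 of 74.5, 101 and 74.9. Dnajc3, a BiP cochaperone, was at 16.1 RPKM at day 0 and highest at day 4 (24.3). From day 1 to day 2 all 15 chaperones had a positive change, with a median of 0.34 (log2), and from day 2 to day 5 13 of the 15 had a negative one. Day 2 held the highest mean of 12 of the 15, so for these 12 the signs largely follow from that peak and add no support.

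P4hb and Dnajb9 were highest at day 5. P4hb (chr11:120560298-120573253) encodes protein disulfide isomerase, which is also the beta subunit of prolyl 4-hydroxylase and of the microsomal triglyceride transfer protein that loads lipoproteins in enterocytes. It was at 385, 428 and 437 RPKM at day 0, 419.6, 388 and 595 at day 1, 461, 871 and 349 at day 2, 957, 382 and 604 at day 3, 1435, 1005 and 387 at day 4 and 1104, 988 and 994 at day 5. The 3 libraries of day 5 were tight and above those of days 0, 1 and 2, and those of days 2, 3 and 4 ranged from 349 to 1435. Against day 0, P4hb rose at day 5 by 1.30 ± 0.43 (SE, log2, limma adjusted p = 0.0388). The call was lost without any 1 of the 6 libraries of those days (adjusted p = 0.0702 to 0.116). It was also lost with quantile normalization (0.14), with no filter (0.0747) and in the DNase-treated libraries (0.133).

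Dnajb9, a J-domain protein that represses Ire1 and takes part in degradation, was at 6.06, 4.00 and 3.43 RPKM at day 0, 4.35, 3.66 and 6.02 at day 1, 6.41, 8.64 and 3.16 at day 2, 8.63, 3.99 and 4.93 at day 3, 14.1, 8.44 and 6.14 at day 4 and 12.1, 9.25 and 7.80 at day 5. Day 5 lay wholly above day 0. It rose by 0.97 ± 0.34 (SE, log2) with a limma adjusted p of 0.048, which 11 of the 18 single omissions brought over 0.05 (0.171 without day 5 replicate 1). The call was also lost in the DNase-treated libraries (0.0902), with no filter (0.0769), with a filter at 5 RPKM (0.051) and with a pseudocount of 0.1 (0.0502). Part of the Dnajb9 sequence (5.5% of 50-base words) is shared with another gene, so its reads may be assigned with less certainty.

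The level of P4hb moved with the markers of absorptive cells. Enterocyte marker genes, summed over 10 genes, ranged from 841 to 1155 RPKM at day 0 and from 14073 to 18322 at day 5. At day 4 the sum was 22276 in replicate 1, 11337 in replicate 2 and 3179 in replicate 3, the order of P4hb in those libraries. The 9 libraries with the highest P4hb were the 9 with the highest enterocyte sum, and 9 of the 10 markers rose from day 0 to day 5. Markers of secretory cells rose between those days as well, 8 of 10 for goblet and 8 of 9 tested for Paneth cells. Of all genes tested 11.4% rose. In bulk RNA, more cells of a type and more RNA per cell cannot be told apart, and the part of enterocyte number in the P4hb result was not tested.

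**Figure D3:**
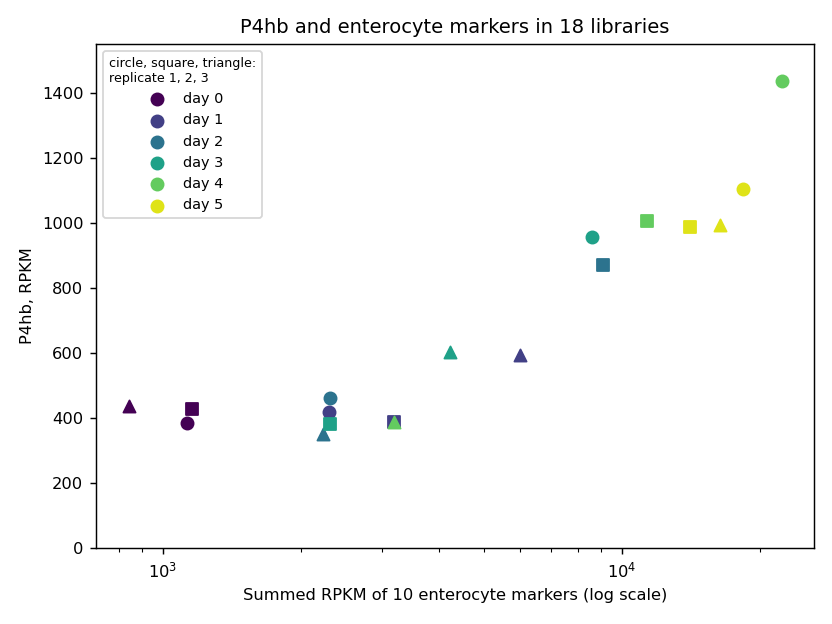
P4hb in RPKM against the summed RPKM of 10 enterocyte markers on a log scale, 1 point per library, coloured by day with the shape giving the replicate. The 9 libraries highest in P4hb, including all 3 of day 5, are those with the highest marker sums, and day 4 replicate 3 (387 RPKM) lies with the low libraries.

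Of the 11 translocation genes tested, Sec11c and Spcs2 were called. Sec11c (chr18:65800578-65817660) is 1 of the alternative catalytic subunits of the signal peptidase. Its libraries were at 24.8, 36.4 and 37.0 RPKM at day 0, 46.4, 49.0 and 47.2 at day 1, 61.7, 53.6 and 64.4 at day 2, 54.99, 55.5 and 62.3 at day 3, 61.4, 65.3 and 69.5 at day 4 and 74.9, 60.8 and 62.7 at day 5. All 15 later libraries were above all 3 of day 0. The log2 change from day 0 was 0.55 ± 0.15 (SE) at day 1 (limma adjusted p = 0.0187), 0.87 ± 0.15 at day 2 (adjusted p = 0.00146) and 1.01 ± 0.15 at day 5 (adjusted p = 0.000521). The last 2 calls held without each library in turn, the day 5 call also with DNase-treated libraries alone (adjusted p = 0.0165). The day 1 call was lost without day 0 replicate 1 (0.0715), day 1 replicate 2 (0.0613) or day 1 replicate 3 (0.0556), without the 3 libraries that stood apart (0.36, adjusted p = 0.0669) and with quantile normalization (0.0802). From day 1 to day 5 Sec11c rose by 0.46 (log2, limma adjusted p = 0.0332). This call was lost without any 1 library of those days (0.0523 to 0.123) and in the DNase-treated libraries alone (0.101).

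The other catalytic subunit, Sec11a, stayed between means of 20 and 23.5 RPKM, and the accessory subunits Spcs1 and Spcs3 between 30.3 and 35.9 and between 21.2 and 27.2. Spcs2, also a signal peptidase subunit, was at 37.1, 39.4 and 40.1 RPKM at day 0, 31.9, 20.9 and 20.1 at day 1, 46.5, 32.5 and 22.5 at day 2, 41.0, 24.001 and 33.2 at day 3, 39.7, 34.9 and 33.1 at day 4 and 50.1, 44.6 and 42.2 at day 5. All day 1 libraries were below, and all day 5 libraries above, those of day 0. From day 1 to day 5 it rose by 0.91 ± 0.24 (SE, log2, limma adjusted p = 0.0141), a call lost without day 1 replicate 2 (0.0548) or day 5 replicate 1 (0.052). At day 1 against day 0 its change of -0.68 was not called in all 18 libraries. It was in the 12 DNase-treated ones (-0.92, adjusted p = 0.0133), with quantile normalization (-0.88, 0.0164), in a fit of the 2 days alone (0.0373) and without any 1 of 5 single libraries (0.027 to 0.0469).

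With all 18 libraries no subunit of the channel or of its associated complex was called. Sec61a1, the pore-forming subunit, was at 61.8, 65.9 and 74.8 RPKM at day 0, 78.5, 70.3 and 71.3 at day 1, 83.7, 93.2 and 68.2 at day 2, 77.8, 56.4 and 82.7 at day 3, 58.7, 71.6 and 61.7 at day 4 and 47.5, 63.7 and 65.6 at day 5. Days 0 and 5 overlapped, with a difference of -0.20 (log2, 95% interval -0.57 to 0.16, limma adjusted p = 0.374). From day 2 to day 5 Sec61a1 fell by 0.47 once the 3 libraries that stood apart were left out (adjusted p = 0.044). Ssr4, of the translocon-associated protein complex, was at 123, 125 and 131 RPKM at day 0, 132, 121 and 114 at day 1, 137, 109 and 118 at day 2, 153, 143 and 127 at day 3, 154, 153 and 114 at day 4 and 187, 152 and 131 at day 5. Its difference between days 5 and 0 was 0.29 (log2, 95% interval -0.04 to 0.62, limma adjusted p = 0.173). Ssr1, Ssr2 and Ssr3 had day means of 16.8 to 22.5, 134 to 152 and 57.8 to 69.3 RPKM. Ssr1 was lower at day 5 than at day 0 in a fit of those 2 days alone (-0.33, limma adjusted p = 0.04). Sec61b, with day means of 47.5 to 69.6 RPKM, shares 31.5% of its 50-base words with 3 other genes, and Sec61g 18.3% with pseudogenes, so both levels are uncertain. Without day 3 replicate 1, Sec61b passed the test at day 5 against day 0 (0.44, limma adjusted p = 0.0484).

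Of the 7 ER-associated degradation genes tested, 2 rose from day 1 to day 5 and 1 from day 0 to day 5. From day 1 to day 5, 8 of the 41 members rose and none fell, where 27.8% of all genes were called (11.8% rose and 16.1% fell). The 8 were Herpud1 and Edem2 of the degradation group, Sec11c and Spcs2 of the signal peptidase, and Xbp1, Atf6, Ern2 and Creb3l1. Herpud1 (chr8:94386429-94395371), a membrane scaffold of the Hrd1 ligase, was at 29.5, 44.7 and 46.4 RPKM at day 0, 29.8, 29.2 and 31.3 at day 1, 42.8, 55.8 and 40.2 at day 2, 63.3, 49.4 and 46.5 at day 3, 65.1, 54.98 and 44.4 at day 4 and 63.0, 48.1 and 47.7 at day 5. All libraries of days 2 to 5 were above all of day 1, which were tight. It rose by 0.79 ± 0.20 (SE, log2) from day 1 to day 5 (limma adjusted p = 0.0122; 0.0555 without day 5 replicate 1).

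In Herpud1, day 0 replicate 1 was as low as the libraries of day 1. With all libraries the change was -0.38 (limma adjusted p = 0.199). It was -0.58 without the 3 libraries that stood apart, day 0 replicate 1 among them (adjusted p = 0.038), while DNase-treated libraries alone also gave -0.58 (adjusted p = 0.0475). Quantile normalization gave the same change (-0.58, 0.0469). Edem2, a mannosidase-like protein that trims misfolded glycoproteins, was at 14.6, 22.2 and 25.0 RPKM at day 0, 13.7, 16.2 and 17.3 at day 1, 17.3, 26.6 and 16.4 at day 2, 26.5, 18.3 and 22.4 at day 3, 30.5, 30.3 and 20.3 at day 4 and 27.8, 29.0 and 30.7 at day 5. Day 5 was above days 0 and 1, and the rise from day 1 was 0.86 ± 0.22 (SE, log2, limma adjusted p = 0.0138). That call was lost without day 1 replicate 1 (0.0582) and in the DNase-treated libraries alone (0.0572). Without the 3 libraries that stood apart Edem2 also fell from day 0 to day 1 (-0.56, adjusted p = 0.0479).

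By day 5, 7 members rose against day 0 and none fell, where 24.4% of all genes were called (11.4% rose and 13% fell). Over all genes that split was 1268 higher and 1446 lower, and with median-of-ratios rescaling 1603 and 1120. The 7 were Sdf2l1, P4hb, Dnajb9, Sec11c, Atf6, Ern2 and Edem1, the last a relative of Edem2. Edem1 was at 9.34, 8.70 and 9.25 RPKM at day 0, 10.2, 10.3 and 12.2 at day 1, 12.9, 20.6 and 10.6 at day 2, 16.9, 9.44 and 14.5 at day 3, 17.7, 17.97 and 12.7 at day 4 and 13.5, 15.5 and 17.8 at day 5. Day 0 was tight and below every other library. The change to day 5 was 0.71 ± 0.23 (SE, log2, limma adjusted p = 0.034). That call was lost without any 1 of the 6 libraries of those days (adjusted p = 0.0639 to 0.0968) and in the DNase-treated libraries alone (0.0958).

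Sel1l, Syvn1, Derl1 and Derl2, the core of the Hrd1 complex, were called in no comparison, with all libraries or under any alternative run. Sel1l, the adaptor of the ligase, was at 11.9, 11.7 and 12.1 RPKM at day 0, 12.6, 10.99 and 12.6 at day 1, 13.7, 18.5 and 11.6 at day 2, 16.7, 13.0 and 15.3 at day 3, 15.3, 15.7 and 11.6 at day 4 and 11.8, 13.6 and 14.4 at day 5. Its difference between days 5 and 0 was 0.14 (log2, 95% interval -0.21 to 0.49, limma adjusted p = 0.52). Syvn1, the ligase itself, had day means of 15.1 to 21.1 RPKM, and the channel-forming Derl1 and Derl2 of 21.5 to 26.7 and 8.02 to 9.98. Derl3, the relative of Derl1 and Derl2 typical of professional secretory cells, was too low to test. It was at 0.0591, 0.109 and 0.0489 RPKM at day 0, 0.0972, 0.169 and 0.0994 at day 1, 0.186, 0.0974 and 0.189 at day 2, 0.352, 0.0162 and 0.330 at day 3, 0.130, 0.479 and 0.623 at day 4 and 0.286, 0.487 and 0.438 at day 5. Every day 5 library was above every library of days 0 to 2. With no filter, which let Derl3 in, it passed the test at day 5 against day 0 (0.39 on the log2(RPKM + 1) scale, limma adjusted p = 0.0465).

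Of the 6 sensors and transcription factors, all had positive changes from day 1 to day 5, and 4 of them rose. Xbp1 (chr11:5520641-5525993), the transcription factor downstream of Ire1, was at 69.1, 76.1 and 85.4 RPKM at day 0, 53.3, 52.6 and 64.6 at day 1, 82.9, 87.4 and 60.0 at day 2, 95.9, 65.6 and 79.6 at day 3, 95.1, 89.0 and 74.2 at day 4 and 98.1, 93.6 and 86.7 at day 5. Day 1 was below, and day 5 above, all libraries of day 0. Xbp1 rose by 0.70 ± 0.17 (SE, log2) from day 1 to day 5 (limma adjusted p = 0.0106), which held without each library in turn but not in the DNase-treated libraries (adjusted p = 0.074). Its change from day 0 to day 1 was -0.43 (adjusted p = 0.0958), called, among the alternatives run, with quantile normalization only (-0.66, adjusted p = 0.00855).

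Ern2 (chr7:122169893-122186239), the Ire1 relative found in mucosal epithelium and mainly in goblet cells, had the largest change of any member between days 1 and 5. It was at 1.79, 0.999 and 1.99 RPKM at day 0, 0.540, 0.786 and 0.622 at day 1, 1.90, 1.503 and 2.96 at day 2, 1.83, 1.15 and 4.22 at day 3, 1.93, 4.10 and 3.76 at day 4 and 2.62, 4.53 and 5.05 at day 5. No library of another day was as low as those of day 1. Its rise from day 1 to day 5 was 1.59 ± 0.31 (SE, log2, limma adjusted p = 0.00375), a call kept without each library in turn and with DNase-treated libraries alone (adjusted p = 0.0207). Against day 0 it rose by 0.95 ± 0.31 (adjusted p = 0.0365), which was lost without any 1 of the 3 day 0 libraries or of day 5 replicates 2 and 3 (adjusted p = 0.0587 to 0.134). The DNase-treated libraries alone (0.0673) and a fit with no filter (0.0614) also ended that call.

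Creb3l1 (chr2:91982328-92024170), a membrane-bound transcription factor of secretory cells that is cut like Atf6, showed the same low point at day 1. Its libraries were at 2.77, 1.97 and 3.72 RPKM at day 0, 1.10, 1.62 and 1.48 at day 1, 3.52, 2.79 and 7.52 at day 2, 3.32, 3.38 and 6.16 at day 3, 3.29, 5.68 and 7.47 at day 4 and 4.09, 7.02 and 6.86 at day 5. The rise from day 1 to day 5 was 1.52 ± 0.32 (SE, log2, limma adjusted p = 0.00538), a call that no single omission ended and that DNase-treated libraries alone also gave (adjusted p = 0.0252). In the F test over all days, both Ern2 (0.0507) and Creb3l1 (0.066) lost their call without day 1 replicate 1.

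The levels of these 2 genes were set beside goblet cell markers. Without Ern2, which is itself one of the goblet markers used, 9 genes remained, and their summed level was 215 to 591 RPKM at day 0, 308 to 377 at day 1 and 1880 to 2750.1 at day 5. All 9 rose from day 1 to day 5, with a median of 2.09 (log2), and 7 of 9 rose from day 0. The largest changes since day 1 were 4.40 for Spink4 and 2.53 for Zg16, both secreted by goblet cells. Of the 9 libraries with the highest marker sum, 8 were among the 9 highest in Ern2 and 7 among the 9 highest in Creb3l1. Other libraries went apart from the markers: day 2 replicate 3 held the highest Creb3l1 at a sum of 689 RPKM, and day 0 replicate 2, with the lowest sum of all (215), was above every day 1 library in Ern2. All 9 tested Paneth cell markers rose from day 1 as well. Whether the share of secretory cells accounts for the levels of Ern2 and Creb3l1 was not tested.

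**Figure D4:**
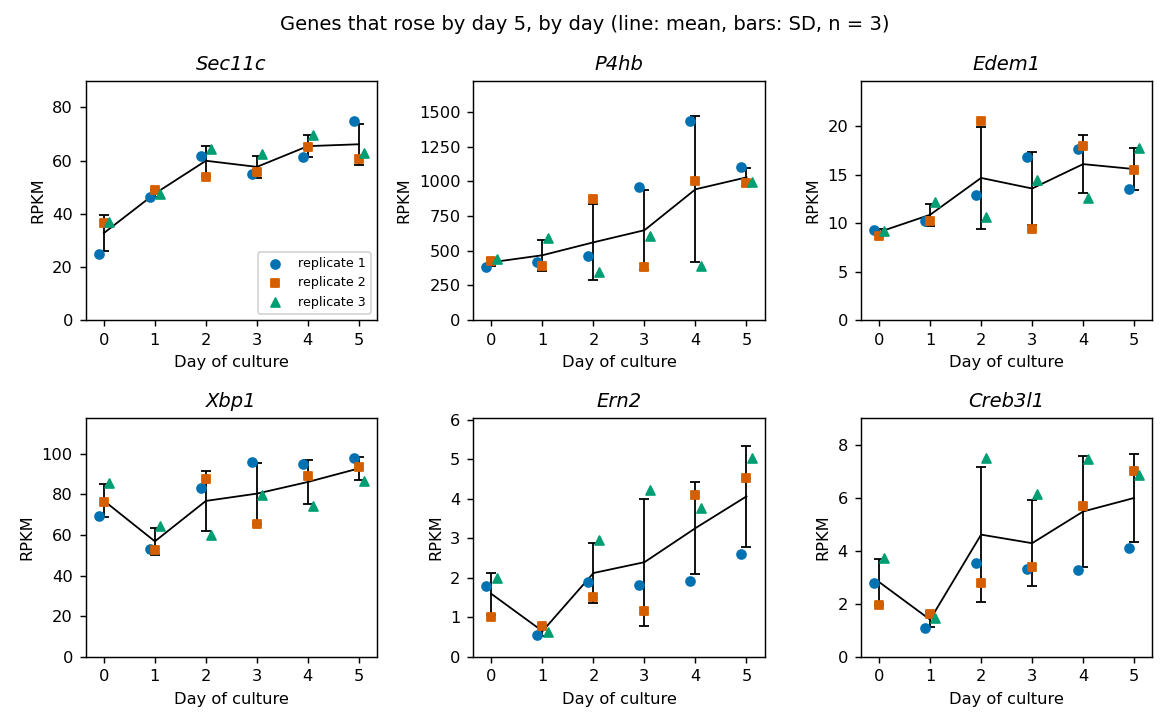
RPKM of 6 genes that rose by day 5, against day 0 or day 1, by day of culture, with 1 point per library and the mean ± SD of n = 3 as a black line. Ern2, Creb3l1 and Xbp1 are lowest at day 1, Sec11c and Edem1 are lowest at day 0, and P4hb is spread widest at days 2 to 4.

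Atf6, the sensor that is cut in the Golgi, was at 6.87, 5.40 and 5.67 RPKM at day 0, 6.50, 4.85 and 5.92 at day 1, 6.97, 8.38 and 6.73 at day 2, 9.45, 7.90 and 7.80 at day 3, 10.0, 9.12 and 6.00 at day 4 and 7.65, 10.1 and 10.2 at day 5. Day 5 was above days 0 and 1. It rose by 0.56 ± 0.18 (SE, log2) from day 0 (limma adjusted p = 0.0331) and by 0.61 ± 0.18 from day 1 (adjusted p = 0.0224). The first call was lost without day 0 replicates 2 or 3 or day 5 replicates 2 or 3 (adjusted p = 0.0915 to 0.109), and the second without day 1 replicate 2 or day 5 replicates 2 or 3 (0.0735 to 0.0895). Both held in the DNase-treated libraries (0.0379 and 0.0248).

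Ern1, the Ire1 sensor present in most cell types, was at 5.87, 5.39 and 5.37 RPKM at day 0, 3.59, 3.65 and 2.57 at day 1, 3.46, 4.46 and 3.92 at day 2, 5.52, 3.64 and 4.95 at day 3, 5.96, 7.10 and 3.39 at day 4 and 3.54, 6.39 and 8.10 at day 5. Days 1 and 2 were below day 0, and day 5 was spread over both. Neither its change at day 1 (-0.63, limma adjusted p = 0.0923) nor that from day 1 to day 5 (0.67, adjusted p = 0.0557) was called. The first was called in a fit of those days alone (adjusted p = 0.0285) and without day 5 replicate 1 (0.0498). The second was called with median-of-ratios rescaling (0.80, adjusted p = 0.0404), quantile normalization (0.77, 0.0394) and DNase-treated libraries alone (1.01, 0.042). It was also called when day 5 replicate 1 (0.0195), day 4 replicate 3 (0.0274) or the 3 libraries that stood apart (0.0279) were left out. Creb3l2, a relative of Creb3l1, had means of 2.91, 3.5 and 7.01 RPKM at days 0, 1 and 5. It was not called with all 18 libraries, but from day 0 to day 5 it was without the 3 libraries that stood apart (0.95, limma adjusted p = 0.034) and with quantile normalization (1.24, 0.0324). The retrieval receptors, which return escaped ER proteins from the Golgi, were not called with all 18 libraries either. Kdelr2 had means of 67.6 RPKM at day 0 and 96.9 at day 5, and Kdelr3 of 1.16, 3.59 and 2.26 RPKM at days 0, 4 and 5. Without the 3 libraries that stood apart Kdelr2 rose to day 5 by 0.46 from day 0 (adjusted p = 0.046) and by 0.49 from day 1 (0.0181). In fits of only the days compared Kdelr2 was called in both (0.015 and 0.0184) and Kdelr3 from day 1 to day 5 (0.61, 0.0281).

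Set side by side, the chaperone and degradation groups had their medians furthest from 0 in different comparisons. The translocon medians lay between 0.01 and 0.18 in the comparisons that follow. From day 0 to day 2 the median log2 change was 0.46 over 15 chaperones (5 rose), 0.16 over 11 translocation genes (1 rose) and 0.23 over 7 degradation genes (none rose), against 0.02 over all genes tested. From day 2 to day 5 the medians were -0.44 (2 fell), 0.01 and 0.12 (none called in either), against -0.16 over all genes. For day 5 against day 0 they came to 0.18 (3 rose), 0.18 (1 rose) and 0.24 (1 rose), against -0.17, and from day 1 to day 5 to -0.10 (none), 0.16 (2 rose) and 0.30 (2 rose), against -0.15. The 6 sensors and transcription factors had medians of -0.53 at day 1 against day 0 (none called) and 0.75 from day 1 to day 5. No test compared the groups. Both comparisons with day 2 were added once the day means, for most chaperones highest at day 2, had been seen. Single libraries moved some of these medians: without day 2 replicate 2 the degradation median at day 2 was 0.08, without day 0 replicate 1 the chaperone median at day 5 against day 0 was 0.08, and from day 1 to day 5 the translocon median was 0.07 without day 1 replicate 3 and the degradation median 0.19 without day 1 replicate 2.

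Scaling bears on these medians. Median-of-ratios rescaling moved the median of all genes for day 5 against day 0 from -0.17 to -0.004, and raised the group medians with it. The chaperone median from day 1 to day 5, -0.10, changed sign, to 0.05 with that rescaling and 0.04 in the DNase-treated libraries. With quantile normalization the translocon medians against day 0 were -0.15, -0.04 and -0.11 at days 1, 2 and 5, and the chaperone median was -0.11 at day 1 and -0.10 at day 5 against day 0. The chaperone medians of 0.46 at day 2 and -0.44 from day 2 to day 5 kept their sign under both, as did the sensor medians. Most calls at day 1 against day 0 were not kept. With quantile normalization 1 member rose (Sdf2l1) and 4 fell (Canx, Spcs2, Herpud1 and Xbp1). In the DNase-treated libraries none rose and 2 fell (Spcs2 and Herpud1). The members that lost their call kept positive changes. Dnajb11, Creld2 and Sec11c were at 0.311, 0.491 and 0.381 with quantile normalization. In the DNase-treated libraries they were at 0.375, 0.487 and 0.381, and Sdf2l1 was at 0.558. Shares over all genes in these fits are not given here.

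**Figure D5:**
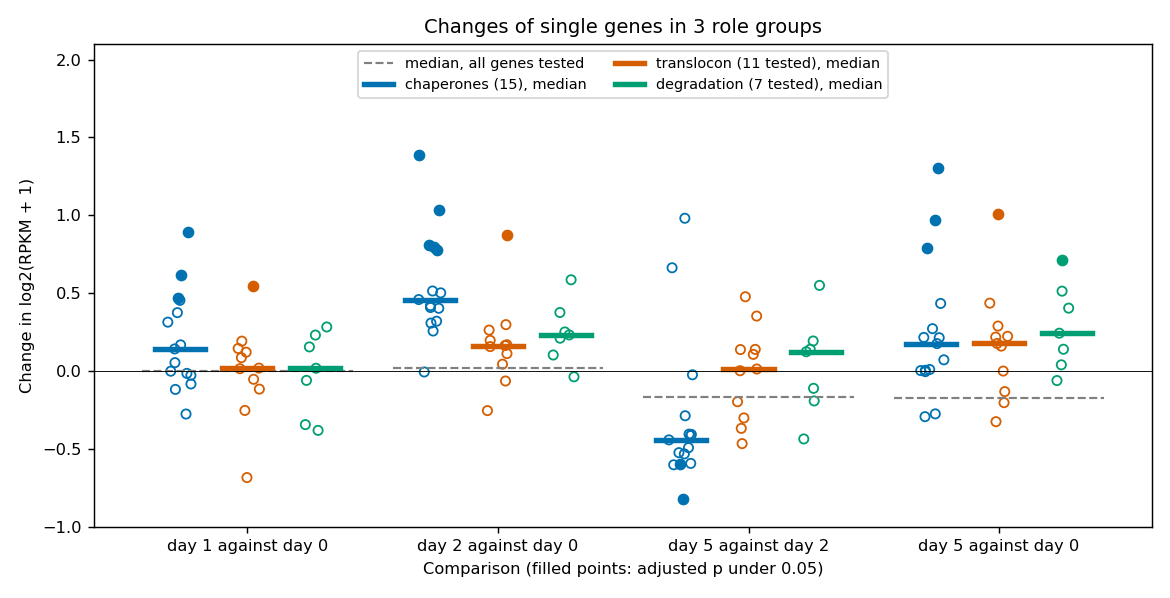
Log2 change of each tested gene of the chaperone (15), translocon (11) and degradation (7) groups in 4 comparisons, with thick bars at the group medians, filled points for adjusted p under 0.05 and a dashed line at the median of all genes tested. The chaperones lie highest at day 2 against day 0 (median 0.46) and lowest at day 5 against day 2 (median -0.44).

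The members that hold the stress response element, shown above, can be set beside those with a promoter that does not. Of 8 tested with it (Derl3 was not tested), 7 had a positive change from day 0 to day 2, with a median of 0.44 (log2), and all 8 had a negative change from day 2 to day 5, with a median of -0.44. Of 22 tested without it, 17 were positive at day 2 (median 0.24) and 14 were positive from day 2 to day 5 (median 0.13). Hspa5 and Creld2 were the 2 with the element that rose at day 2. Sdf2l1 and Dnajb11, which rose as well, do not hold these letters in the window, and Manf and Sec11c had no promoter in the set. Since 7 of the 9 genes with the element are chaperones, the same was set out within that role. At day 2 the median was 0.46 over the 7 chaperones with it and 0.41 over the 6 without it, and from day 2 to day 5 it was -0.44 and -0.41, with 7 of 7 and 4 of 6 negative. Most of the genes with the element had their highest mean at day 2, and both comparisons were added once the day means had been seen. The signs into and out of day 2 largely follow from that. All of these values are descriptions, with no test.

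Between neighbouring days no member passed the test. From day 1 to day 2 limma called 0 of 41, as it called 0 of all genes tested (0%). Still, 38 members had a positive change, with a median of 0.30 (log2) against 0.0045 over all genes. Of the 41, 9 were under an unadjusted p of 0.05, as were 263 of the 11111 genes tested. From day 2 to day 3 no gene at all was called (0%), and no member was under an unadjusted p of 0.05, against 48 of all genes. From day 3 to day 4 and from day 4 to day 5 the calls were 0 of 41 as well, against 0.036% and 0.189% of all genes. Again no member was under an unadjusted p of 0.05, against 541 and 454 of all genes.

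A further list held 69 other genes of the same pathways, of which 67 were tested. From day 0 to day 2, 7 rose and none fell (10.4% called, against 15.3% of all genes), among them Dnajc10, a disulfide reductase that works with BiP (0.87, log2), the degradation enzyme Ube2g2 (0.68) and Dad1, a subunit of the oligosaccharyltransferase (0.62). At day 1 against day 0, 6 rose and 3 fell (13.4%, against 18.6% of all genes). The rises included Ube2g2 (0.71), the ER lumen protein Erp29 (0.70) and Dad1, and among the falls was Bhlha15, a transcription factor of secretory cells, which fell by 1.00 from a mean of 1.93 to 0.391 RPKM (limma adjusted p = 0.0218).

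At day 5, 8 of the 67 rose against day 0 and 2 fell (14.9%, against 24.4% of all genes). The largest increases were in Creb3l3, a membrane-bound factor of liver and gut lipid metabolism, from 28.9 to 148 RPKM (2.67, log2, limma adjusted p = 0.0162), and in Agr2, the disulfide isomerase needed for mucin folding, from 63.5 to 201 RPKM (1.73, adjusted p = 0.0117). Since day 1, 12 rose and 8 fell (29.9%, against 27.8% of all genes), and Agr2 (1.88), Bhlha15 (1.73) and Creb3l4 (1.55) rose most. From day 2 to day 5, 3 rose and 3 fell (8.96%, against 11.7% of all genes), with Ube2g2 falling by 0.67. A list of 15 genes of the integrated stress response had no member that rose at day 1 or day 2 against day 0. Of these genes Nupr1, Atf3 and Ppp1r15a fell at both days, Atf3 from 16.0 to 4.08 RPKM at day 1. These 3 are 20% of the list, where 9.05% of all genes fell at day 1 and 7.06% at day 2. The summed level of the list was highest in day 3 replicate 2, at 1143 RPKM, and next in day 0 replicate 3, at 786.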

How the data were processed

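RNA-seq libraries of 18 organoid samples were described by their deposited RPKM values, a length-scaled read count per library, which the authors computed. Per the submitters' processing notes, bcl2fastq 2.17, STAR 2.5.2b, edgeR 3.20.5 and build mm10 were used, but their roles, the annotation and the handling of ambiguous reads are not given here. Implied depth was read from the steps between low RPKM values, shared by 84 to 155 genes per library within a relative tolerance of 2e-05. No pair of libraries was identical.

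Tests fitted all 18 libraries together, since 3 per day say little on the spread, with 1 coefficient per day. They used limma 3.58.1 (R 4.3.3; lmFit, then eBayes with trend) on log2(RPKM + 1). This scale understates the change of low genes. Only genes that reached 1 RPKM in 3 or more libraries entered (11111). Two-sided p-values were adjusted by the Benjamini-Hochberg method over all of these, and called means under 0.05 after adjustment. Sharing of 50-base words with other genes used GENCODE transcripts. The scripts were tested on simulated data. The members and lists were chosen with earlier results of these data known. Every library's value is given for 11 members that stand for the roles and, in each comparison, for the 6 called members that changed most. Alternatives covered pseudocount, filter, scaling, replicate block, DNase treatment, days in the fit and single libraries.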

Additional observations from a re-analysis of the deposited data

How the results depend on the processing

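No call of a single member reversed under any alternative run, but most are close to the threshold. Over all members, comparisons and alternatives run, 140 calls were lost and 141 gained. The counts in this section stand without the share of all genes called in the same fit. Their shifts therefore cannot be read as particular to the members. In the 12 DNase-treated libraries the F test called 2 members, day 1 and day 5 against day 0 called 2 each and day 5 against day 2 called 0, and the translocon median at day 2 was -0.023. In fits of only the days compared 12 members (11 higher, 1 lower) were called at day 5 against day 0 and 15 against day 1. Without the 3 libraries that stood apart, a choice made after seeing the data, 17 were called in the F test, 14 at day 5 against day 1 and 8 (2 higher, 6 lower) against day 2. With median-of-ratios rescaling the translocon medians were 0.37, 0.32 and 0.17 at day 5 against days 0, 1 and 2, and 1 member was called in the last. With quantile normalization they were -0.145, -0.037 and -0.11 at days 1, 2 and 5 against day 0. These causes were not tested.

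Leaving out 1 library at a time gave 4 (without day 1 replicate 1) to 17 (without day 4 replicate 3) members in the F test, 0 (without day 0 replicate 1) to 5 at day 1, 5 to 7 at day 2 and 1 (without day 5 replicate 2) to 10 at day 5 against day 0. At day 5 it gave 5 (without day 1 replicate 2) to 13 (without day 4 replicate 3) against day 1 and 0 (without day 2 replicate 1 or any day 5 library) to 5 against day 2. The count at day 1 was 2 without day 0 replicate 2 and 1 without day 1 replicates 2 or 3. At day 5 against day 0 it was 2 or 3 without any other library of those days, and against day 2 it was 4 without day 2 replicate 2. The medians at day 2 against day 0 ranged from 0.015 (without day 2 replicate 1) to 0.269 for the translocon and from 0.078 to 0.349 (without day 2 replicates 2 and 3) for degradation genes. At day 5 the chaperone median ranged from 0.082 to 0.252 against day 0 and from -0.143 to -0.03 (without day 5 replicate 1) against day 1, and the translocon median from 0.074 to 0.22 against day 1.

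The replicate numbers do not pair the libraries throughout: pairs with the same number correlated at a median of 0.17 (-0.643 to 0.806), with 27 of 45 over 0.1. The median was -0.081 for pairs with different numbers, 0.143 for pairs of the same mouse and -0.064 for pairs of different mice. Same-number and same-mouse pairs were thus more alike at the median, and the main fit had no term for either. With a replicate block by number the F test called 10 members and days 1, 2 and 5 against day 0 called 5, 6 and 9, and with a block by mouse 9, 5, 6 and 9. At day 5 against days 1 and 2 these blocks called 9 and 2, and 11 and 3. They ended the call of Manf in the F test (adjusted p = 0.0572 and 0.0703) and no other, and both called Sec61b at day 5 against day 0 (0.0298 and 0.0454). Derl3 and Sec61g stayed under 1 RPKM and were not tested. The level of Sec61g is uncertain, since part of its sequence is shared with pseudogenes.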
